A study of Mus musculus with 16 samples.

Results

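Memory CD4+ T cells that lack HP1γ were compared with memory CD4+ T cells of littermates that have it, on the basis of the 8 RNA-Seq samples of the HP1γ line among the 16 samples of the series. The samples were chosen by their labels: 4 HP1γ KO samples and 4 WT samples of the same line. In both genotypes the mice were homozygous for the floxed Hp1g allele, on a mixed 129/Sv and C57BL/6 background, and the KO mice also carried the Cd4-cre transgene, which is active from the double-positive stage of the thymus onwards in all αβ T cells, so that the loss of HP1γ and the presence of Cre cannot be told apart. Mice were males of 6 to 12 weeks, and cells were sorted from the spleen as CD4+CD25low/-CD62L-CD44high cells without any further stimulation. The other 8 samples came from the HP1α line, in which the KO was made with CMV-cre and is therefore whole-body, and entered the test of whether a change differed between the lines and the scaling of levels, with single values of that line set beside a few results. Genotype and line are as labelled, and the sort and the lack of stimulation are as the study's methods give them, whereas the labels' treatment entry and the series' design text describe transferred cells and were not used.

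HP1γ, encoded by Cbx3, is one of the heterochromatin protein 1 family members, which bind histone H3 methylated on lysine 9 through their chromodomain. That mark is laid down by SUV39H1 and related enzymes over repeats, over clusters of zinc-finger genes and over genes that belong to other tissues, and it is associated with silencing. HP1γ is also found along the bodies of transcribed genes. In T cells, this pathway is known for its part in the stability of helper lineages.

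Total counts were between 26694045 and 38200283 per KO sample and between 32325534 and 40199637 per WT sample, and between 20926 and 21580 genes had at least 1 count in KO and between 20802 and 21898 in WT. Levels are given as CPM, that is counts scaled to the size of each library, and are compared between samples and not between genes. Genes were tested with edgeR's quasi-likelihood test, adjusted over the 14975 genes with enough counts, and a gene is said to rise or fall where the adjusted p was under 0.05. In bulk samples fewer cells of a type and less RNA per cell cannot be told apart. Nothing in the labels says that samples of a group came from separate animals, so that p-values measure the spread between these samples only.

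RNA of the targeted gene was lower in KO but not lost. Cbx3 (ENSMUSG00000029836, chr6:51447082-51460691, plus strand) had 50.3, 46.3, 45.9 and 47.5 CPM in KO and 92.5, 90.2, 73.4 and 82. CPM in WT (log2 fold change -0.82 ± 0.079 (SE), adjusted p = 0.0015). Each KO sample was below each WT sample. The counts cover the whole gene and not the floxed part alone, so that this check is a partial one. The other family members did not pass the test, with a log2 fold change of -0.11 ± 0.12 for Cbx1 (HP1β) and of -0.29 ± 0.15 for Cbx5 (HP1α). The sort was checked on defining genes: Cd4 had 1223 CPM in KO and 1157 CPM in WT, and all 15 genes of a T cell identity list had a 95% interval of the log2 fold change within 0.5 either side of 0.

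Few genes differed between the genotypes, and most of those that did rose in KO. Of 14975 genes, 38 rose (0.254%) and 11 fell (0.0735%), in all 49 genes (0.327%), while 950 were higher (6.34%) and 834 lower (5.57%) at an unadjusted p under 0.05. With the additional request of a log2 fold change above 1 in size, 29 genes rose (0.194%) and 6 fell (0.0401%). In each of the 49 genes the 4 KO samples did not overlap with the 4 WT samples, as was also the case for 481 higher genes (3.21%) and 582 lower genes (3.89%) of all those tested. With DESeq2 in place of edgeR, 171 genes rose and 81 fell. Left out in turn, each of the 8 samples lowered the number of genes that rose, the lowest being 25 without the first KO sample. The number that fell was 5 without the first and 6 without the second KO sample, and with the request on size 2 and 3. Of the 49 genes, 26 passed in each of these 8 fits, 19 in some and 4 in none. In the text, the number of these 8 fits in which a gene did not pass is given where it is above 0.

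Samples numbered 1 and 2 were closer to each other than to those numbered 3 and 4 in both genotypes. Between samples of a genotype, the chi-square per gene of the counts was 10.2 for KO samples 1 and 2 and 19.3 for KO samples 3 and 4, against 25.5 to 39.3 across these sets, and in WT it was 14.2 and 13.5, against 32.9 to 40.6. No label says what the samples of a set share, and the sets hold both genotypes in equal number. With the set as a term beside genotype, a fit chosen after seeing the data, all 49 genes passed again and 58 more did, giving 79 that rose and 28 that fell. Among the genes described in what follows as not passing, this fit called Dnah8 (adjusted p = 0.0094), Naip6 (0.037), Dstyk (0.010), Zbtb20 (0.032) and Sipa1l2 (0.022) as higher. It called Raph1 (adjusted p = 0.0031), Zbtb38 (0.0053), Atp8a2 (0.017), Rasa1 (0.023), Klk8 (0.028), Lmo4 (0.038) and Il27ra (0.045) as lower. Of the T cell lists, it called Il27ra and Il6st, the shared chain of the IL-6 family receptors, which is in the cytokine receptor and follicular helper lists (log2 fold change 0.29, adjusted p = 0.043).

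**Figure D1:**
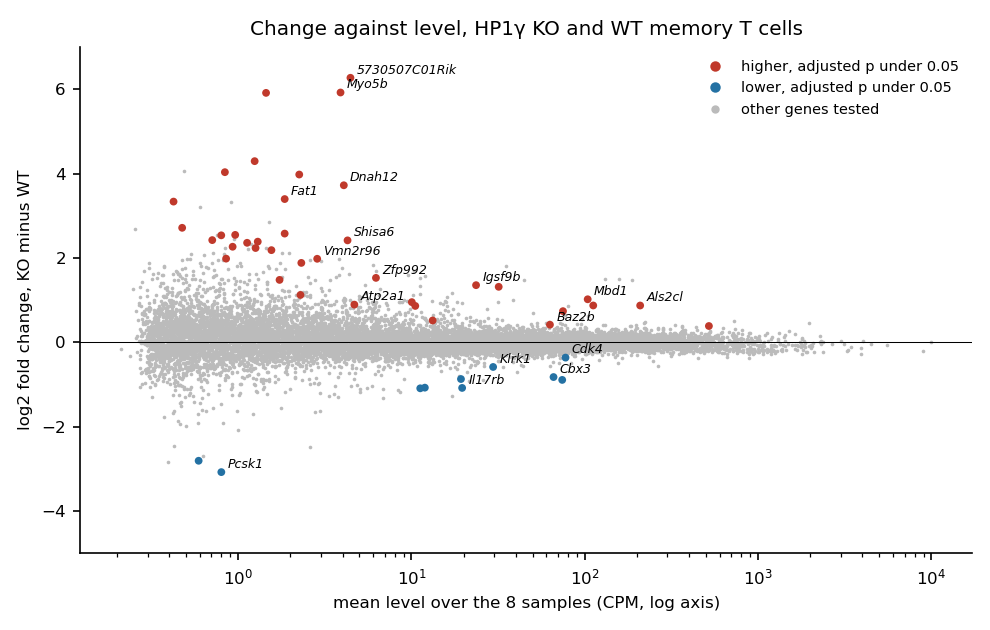
Log2 fold change (KO minus WT) against the mean level over the 8 samples (CPM, log axis) for every gene tested, with the 38 genes that rose in red and the 11 that fell in blue (Rpl35a-ps3, at 0 in every KO sample, is not drawn). Most red points lie at the left, at low levels, whereas the changed genes at 10 CPM or more mostly lie within 1 either side of 0.

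The genes that rose were mostly genes that WT memory cells hardly express. A WT mean under 1 CPM was found for 22 of the 38 genes (57.9%), against 16.7% of all genes tested. In KO, 25 of the 38 had a mean of 1 to 10 CPM and 11 a mean above 10 CPM. Of the 36 that the annotation places, 25 were protein-coding genes, 7 lncRNAs and 4 pseudogenes, spread over 16 chromosomes. Their summed exon length was close to that of all genes (median 5618 against 5464 bases), and 25% spanned more than 100 kb of the genome, against 10.6% of all genes. A gene that passed the filter on low counts through KO alone had to differ, and these shares are descriptions.

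**Figure D2:**
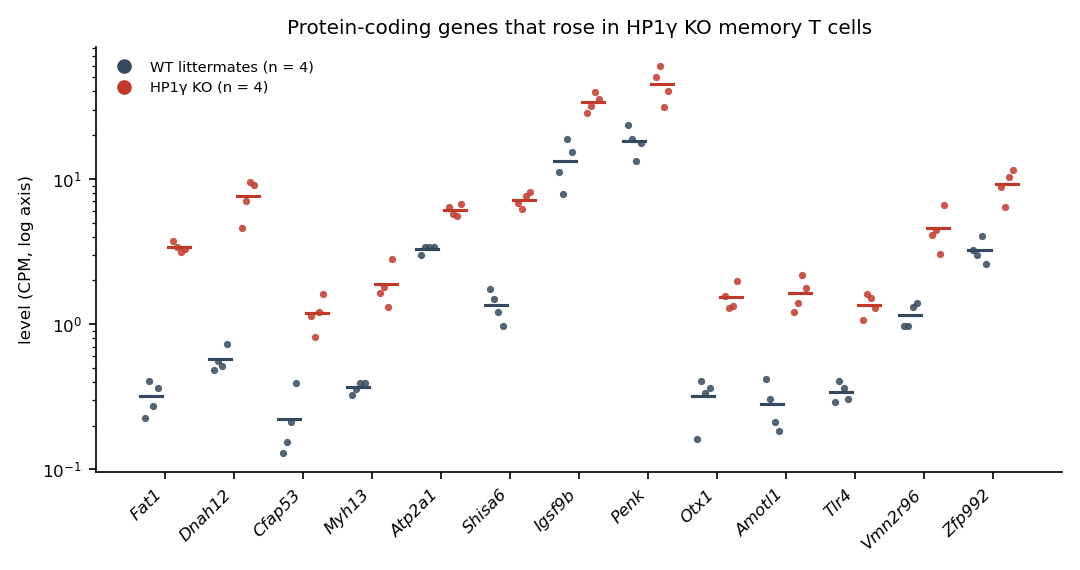
Level in each of the 4 KO (red) and 4 WT (dark) samples for 13 of the protein-coding genes that rose, in CPM on a log axis, with the mean of each genotype as a bar. In every gene the lowest KO sample lies above the highest WT sample.

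Genes of motile cilia and sperm tails were among those that rose. Dnah12 (ENSMUSG00000021879, chr14:26414410-26613660), a heavy chain of the axonemal dynein motor, stood at 4.59, 7.08, 9.54 and 9.06 CPM in KO and at 0.486, 0.561, 0.517 and 0.729 CPM in WT (log2 fold change 3.72 ± 0.27 (SE), adjusted p = 1.88e-04). The lowest KO sample was thus several times above the highest WT sample. Cfap53, a protein of cilia and flagella, had 1.14, 0.817, 1.21 and 1.62 CPM in KO and 0.13, 0.153, 0.213 and 0.395 CPM in WT (log2 fold change 2.42 ± 0.39 (SE), adjusted p = 0.0316). It lies next to Mbd1 and Myo5b on chromosome 18, both of which also rose (log2 fold change 1.02 and 5.92). Cfap53 starts 0.4 kb after the end of Mbd1 on the same strand, and Mbd1 had a mean of 139 CPM in KO and 68.9 CPM in WT. Where the reads of Cfap53 started was not tested. Among 52 cilium and axoneme genes in the files, only 13 had enough counts to be tested, of which these 2 rose and none fell (0.254% of all genes rose), with a median log2 fold change of 0.24. A pair of further dynein heavy chains of the list missed the threshold: Dnah8 had 118, 114, 157 and 117 CPM in KO and 75.6, 69.4, 87.6 and 94.9 CPM in WT (adjusted p = 0.0886), without overlap, and Dnah17 a mean of 7.87 against 4.21 CPM (adjusted p = 0.29). All 5 axonemal dynein heavy chains tested had a log2 fold change above 0, from 0.15 to 3.72, and the other 11 genes of the class in the files had too few counts. Of all 14975 genes tested, 7506 were above 0. Dnah12 is among the 5 and was the only one of them to pass. Summed over the whole list, including the genes under the filter, cilium genes reached between 154 and 203 CPM in KO and between 99.9 and 129 CPM in WT. Dnah8 alone made up most of that sum, and the mean sum of the WT samples of the HP1α line, 156 CPM, was above that of the WT samples here. Cfap53 did not pass in 7 of the 8 fits (adjusted p up to 0.119).

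Genes best known from the brain also rose. Shisa6 (ENSMUSG00000053930, chr11:66102551-66417652), an auxiliary protein of AMPA receptors, had 6.86, 6.16, 7.61 and 8.16 CPM in KO and 1.75, 1.48, 1.22 and 0.973 CPM in WT (log2 fold change 2.42 ± 0.20 (SE), adjusted p = 5.01e-04). Igsf9b (ENSMUSG00000034275, chr9:27210500-27268842), an adhesion molecule of inhibitory synapses, had 28.6, 31.8, 39.7 and 35.3 CPM in KO and 11.1, 7.93, 18.9 and 15.3 CPM in WT (log2 fold change 1.36 ± 0.23 (SE), adjusted p = 0.0437). Penk (ENSMUSG00000045573, chr4:4132722-4141856), the precursor of the enkephalin opioid peptides, which activated T cells also make, had 50.4, 59.6, 31.4 and 40.1 CPM in KO and 23.7, 18.8, 13.3 and 17.6 CPM in WT (log2 fold change 1.32 ± 0.21 (SE), adjusted p = 0.0316). These 3 genes differ in their starting point: Shisa6 was near 1 CPM in WT, whereas Igsf9b and Penk were above 7 CPM in every WT sample. Otx1, a homeobox factor of the forebrain, had 1.55, 1.29, 1.34 and 1.98 CPM in KO and 0.162, 0.408, 0.334 and 0.365 CPM in WT (log2 fold change 2.27 ± 0.32 (SE), adjusted p = 0.013). Of 14 neuronal genes that could be tested of 44 in the files, 1 rose (Shisa6) and 1 fell, Pcsk1, a prohormone convertase at 0.163 CPM in KO and 1.44 CPM in WT. Neuronal voltage-gated calcium channel genes did not pass the test (Cacna1b, log2 fold change 1.14 ± 0.27, unadjusted p = 0.0017), and Cacna1e was high in a single KO sample (9.82, 11.4, 9.897 and 30.4 CPM, against 5.41, 10.3, 8.54 and 3.68 CPM in WT). The fits without a call numbered Igsf9b 6 (adjusted p up to 0.135), Penk 6 (adjusted p up to 0.123), Otx1 3 (adjusted p up to 0.056), Pcsk1 2 (adjusted p up to 0.0571).

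Genes of muscle, epithelium and sensory neurons made up further single rises. Myh13, the myosin heavy chain of eye muscles, had 1.63, 1.804, 1.31 and 2.798 CPM in KO and 0.324, 0.357, 0.395 and 0.395 CPM in WT (log2 fold change 2.36 ± 0.30 (SE), adjusted p = 0.00874), and it lies 794.8 kb from Shisa6 on chromosome 11. Atp2a1, the calcium pump of fast skeletal muscle, had 6.37, 5.69, 5.55 and 6.699 CPM in KO and 2.98, 3.42, 3.37 and 3.37 CPM in WT (log2 fold change 0.90 ± 0.14 (SE), adjusted p = 0.0235). No member of a list of muscle genes passed the test (6 tested of 25 in the files, median log2 fold change 0.23), and the giant sarcomere gene Ttn stood at 36. CPM in KO and 29.2 CPM in WT. For Atp2a1, 7 of the 8 fits gave no call (adjusted p up to 0.10).

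Fat1 (ENSMUSG00000070047, chr8:45388302-45505294), a giant cadherin of epithelial and other cell borders, had 3.75, 3.37, 3.14 and 3.31 CPM in KO and 0.227, 0.408, 0.274 and 0.365 CPM in WT (log2 fold change 3.40 ± 0.24 (SE), adjusted p = 1.88e-04). The 4 KO samples were close to each other, and the highest WT sample was far below the lowest of them. Amotl1, an angiomotin family protein of cell junctions, had 1.21, 1.396, 2.19 and 1.77 CPM in KO and 0.421, 0.306, 0.213 and 0.182 CPM in WT (log2 fold change 2.55 ± 0.33 (SE), adjusted p = 0.0103). Of 10 epithelial genes tested of 27, Myo5b rose and Trpm6, a magnesium channel of gut and kidney, fell (log2 fold change -1.09 ± 0.15), while the adherens junction gene Cdh1 did not pass the test, its level being high in 1 KO sample only (4.06, 3.88, 3.33 and 13.4 CPM in KO). Vmn2r96, a pheromone receptor of the vomeronasal organ, had 4.095, 4.46, 3.04 and 6.62 CPM in KO and 0.972, 0.969, 1.31 and 1.398 CPM in WT (log2 fold change 1.98 ± 0.27 (SE), adjusted p = 0.0107), and it was the single one of 591 vomeronasal receptor genes in the files with enough counts to be tested. Of 1412 olfactory receptor genes, 7 could be tested and none passed.

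Tlr4 (ENSMUSG00000039005, chr4:66745783-66849936), the receptor for bacterial lipopolysaccharide, is a gene of myeloid and B cells. Its level was 1.06, 1.6, 1.503 and 1.28 CPM in KO and 0.292, 0.408, 0.365 and 0.304 CPM in WT (log2 fold change 1.98 ± 0.26 (SE), adjusted p = 0.0107), and without the fourth WT sample the adjusted p was 0.0512. RNA of other blood cells was present in both genotypes. The summed level of 12 myeloid markers was between 98.1 and 149 CPM in KO and between 75.98 and 109 CPM in WT, and the defining genes did not pass the test (Lyz2 at 37.3, 22.9, 27.5 and 24.9 CPM in KO and 27.2, 27.7, 16.5 and 14.7 CPM in WT). The part of these cells in the level of Tlr4 was not tested. Among the other Toll-like receptor genes tested none passed.

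The stretch before the transcription start was read for the genes above, since DNA methylation is found at CpG sites. The 250 bases upstream of the annotated start of 4 of these genes, whose WT means lie between 0.318 and 1.16 CPM and which hold no exon of their own gene, are given 5′ to 3′ on the gene's strand (genome build GRCm39), with each CpG in capitals, to show that risen genes had both CpG-rich and CpG-poor starts. They lie at chr8:45388052-45388301 (plus strand, Fat1), chr14:26414160-26414409 (plus strand, Dnah12), chr11:67212234-67212483 (plus strand, Myh13) and chr17:18793163-18793412 (plus strand, Vmn2r96). Exons of antisense lncRNA genes overlap the stretches of Fat1 and Dnah12.
Fat1: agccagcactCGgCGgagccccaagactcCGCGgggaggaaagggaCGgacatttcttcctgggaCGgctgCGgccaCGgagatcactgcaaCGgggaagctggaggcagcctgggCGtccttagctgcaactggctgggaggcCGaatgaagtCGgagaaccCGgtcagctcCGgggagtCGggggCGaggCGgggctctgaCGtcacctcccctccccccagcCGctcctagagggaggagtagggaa
Dnah12: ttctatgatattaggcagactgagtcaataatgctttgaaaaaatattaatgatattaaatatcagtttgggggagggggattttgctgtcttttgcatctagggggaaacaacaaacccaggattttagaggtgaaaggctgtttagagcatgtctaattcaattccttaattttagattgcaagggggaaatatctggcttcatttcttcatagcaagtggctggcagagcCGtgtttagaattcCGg
Myh13: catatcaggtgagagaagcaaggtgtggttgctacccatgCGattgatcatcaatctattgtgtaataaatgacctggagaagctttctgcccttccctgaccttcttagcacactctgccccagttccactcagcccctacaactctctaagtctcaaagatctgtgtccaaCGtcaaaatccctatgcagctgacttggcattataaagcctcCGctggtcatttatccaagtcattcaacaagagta
Vmn2r96: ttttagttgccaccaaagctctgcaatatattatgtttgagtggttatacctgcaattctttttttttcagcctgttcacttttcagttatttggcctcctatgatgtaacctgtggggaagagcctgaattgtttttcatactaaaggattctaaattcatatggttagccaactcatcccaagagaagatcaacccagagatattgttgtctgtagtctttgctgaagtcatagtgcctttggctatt

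Fat1 held 19 CpG sites in these 250 bases, whereas Myh13 held 3, Dnah12 2 and Vmn2r96 0. Over the 36 risen genes with an annotated start, 16 (44.4%) held 10 or more, against 56.6% of all 14904 genes tested with such a stretch and 33.5% of the 2465 with a WT mean under 1 CPM. Of the 20 risen genes with a WT mean under 1 CPM, 11 (55%) held 10 or more. Among them were 5730507C01Rik, 2410018L13Rik, Gm5784 and 9030624G23Rik of chromosome 12 and the pseudogene Gm13241. All of these named genes but 9030624G23Rik share sequence with other transcripts. Of the 10 fallen genes, 4 (40%) held 10 or more. At the other end, 13 of the 36 (36.1%) held 2 or fewer, against 11.9% of all genes and 26.5% of the low ones. The CpG word was searched as the letters CG, which read the same on both strands, and the shares describe these windows only.

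Among numbered zinc-finger genes, which lie in clusters, 1 rose. Zfp992 (chromosome 4, 146533480 to 146554749), a zinc-finger protein, had 8.76, 6.43, 10.3 and 11.6 CPM in KO and 3.24, 3.01, 4.07 and 2.58 CPM in WT (log2 fold change 1.53 ± 0.21 (SE), adjusted p = 0.0107). The processed pseudogene Gm13241, 5 kb away, rose too (log2 fold change 2.39 ± 0.32), and the neighbours Zfp987 and Zfp993 did not overlap between genotypes without passing the test (log2 fold change 1.27 and 1.11). Zfp992 shares up to 4507 bases at 98% identity or more with Zfp991, so that its reads can be split between copies and its value is uncertain. Of all 331 numbered Zfp genes tested, 1 rose and none fell, 39 were higher and 3 lower at an unadjusted p under 0.05 (6.34% and 5.57% of all genes), 31 were higher and 3 lower without overlap (3.21% and 3.89% of all genes), and the median log2 fold change was 0.063. In the HP1α line the same median was -0.055.

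The remaining risen genes were mostly predicted or multi-copy genes. Of 37 risen genes that could be searched, 10 shared at least 150 bases at 98% identity or more with the transcript of another gene, among them 5730507C01Rik, Gm5784 and 2410018L13Rik of chromosome 12. Csprs, a member of a multi-copy family, had 2.199, 1.53, 1.99 and 2.59 CPM in KO and 0.324, 0.408, 0.456 and 0.577 CPM in WT (log2 fold change 2.24 ± 0.27 (SE), adjusted p = 0.00724), and it shared 2508 bases with Gm15433. Gm7592 of chromosome 1 also shared sequence with Gm15433, over 891 bases, and rose by 2.19 ± 0.35 on the log2 scale, without a call in 7 of the 8 fits (adjusted p up to 0.117). How their reads were divided among copies was not tested. Chromosome 12 carried 6 of the 38 risen genes and 3.69% of the genes tested.

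Further risen genes have no known function. Large log2 fold changes were found for 5730507C01Rik (6.27), Gm6093 (5.91), Gm21188 (4.29) and Gm49215 (4.03), the last of which lies within Marchf6. The others ranged from 0.39 for ENSMUSG00000121093 to 3.34 for Gm48035, with Gm48693 at 2.54 and 9030624G23Rik at 2.72, Gm37240 at 1.88 and B230303O12Rik at 1.12. Gm37240 overlaps Arfip1, Fhip1a and Glt28d2 on its strand. The fits without a call numbered Gm48035 6 (adjusted p up to 0.093), 9030624G23Rik 3 (adjusted p up to 0.0589), Gm37240 7 (adjusted p up to 0.142), B230303O12Rik 8 (adjusted p up to 0.159).

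Against the HP1α line, 8 genes changed differently by the test of the interaction (0.0534% of 14975), all of them among the 49. Dnah12 was one (log2 fold change -1.25 in the HP1α line, adjusted p of the interaction = 0.00127), as were Shisa6 (0.38, adjusted p = 0.00679) and Als2cl (0.076, adjusted p = 0.0274). The HP1α value of Dnah12 rests on low means, 0.324 CPM in KO and 0.756 CPM in WT. For Fat1, Penk and Igsf9b the difference between the lines did not pass (adjusted p = 0.0942, 0.271 and 0.116), with log2 fold changes of 0.58, 0.055 and -0.067 in the HP1α line.

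Genes that fell were fewer. None of the 11 had a WT mean under 1 CPM, and 3 had a KO mean under 1 CPM. A gene that passed the filter on low counts through WT alone had to be lower in KO, so that these counts are descriptions. Il17rb (ENSMUSG00000015966, chr14:29716082-29730956), the receptor of IL-25, had 10.8, 10.5, 13.2 and 15.5 CPM in KO and 25.2, 34.2, 19.1 and 28.2 CPM in WT (log2 fold change -1.08 ± 0.18 (SE), adjusted p = 0.039). Pxdc1, a PX-domain protein, had 7.47, 7.76, 6.99 and 8.39 CPM in KO and 20.2, 17.3, 12.4 and 15.1 CPM in WT (log2 fold change -1.07 ± 0.14 (SE), adjusted p = 0.0107). Klrk1 (ENSMUSG00000030149, chr6:129587286-129600827), which encodes the activating receptor NKG2D, had 22.1, 24.8, 22.6 and 24.98 CPM in KO and 36.4, 32.01, 41.3 and 32.6 CPM in WT (log2 fold change -0.58 ± 0.10 (SE), adjusted p = 0.0385). In all 3, each KO sample lay below each WT sample. Klrk1 is also a gene of NK cells, and the 8 NK markers with it summed to between 86.3 and 120.3 CPM in KO and between 111 and 146 CPM in WT, with Klrd1 at a mean of 8.14 CPM in KO and 9.96 CPM in WT. The part of NK cells was not tested. The fits without a call numbered Il17rb 6 (adjusted p up to 0.157), Klrk1 7 (adjusted p up to 0.147), Pxdc1 1 (adjusted p up to 0.0541).

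Cdk4 (ENSMUSG00000006728, chr10:126895180-126903789), the cyclin-dependent kinase of the G1 phase, had 64.2, 66.9, 67.8 and 71.3 CPM in KO and 89.9, 89.5, 83.3 and 86.3 CPM in WT (log2 fold change -0.36 ± 0.058 (SE), adjusted p = 0.0316). Its fall was small, without overlap, and 7 of the 8 fits gave no call (adjusted p up to 0.14). Marchf6, Trpm6, Pcsk1, 2600014E21Rik and the unnamed gene ENSMUSG00000095742 completed the list with log2 fold changes of -0.89, -1.09, -3.07, -2.81 and -0.87. The pseudogene Rpl35a-ps3 had 0 counts in every KO sample and 8.88, 7.32, 11.1 and 1.55 CPM in WT. The WT mean of 7.202 CPM was at least 64.1-fold above a floor of 3 counts per library, but the fourth WT sample held only 51 counts. Rpl35a-ps3 has an exon length of 333 bases and shares 337 aligned bases with Rpl35a, so that its reads can be assigned to that gene and its value is uncertain. Trpm6 lost its call without the first KO sample (adjusted p = 0.0541), Pcsk1 without the first or the second, and 2600014E21Rik in 6 of the 8 fits (adjusted p up to 0.133). In the HP1α line Trpm6, Pcsk1 and 2600014E21Rik were lower too, without passing (log2 fold change -0.57, -1.42 and -1.41). For them the difference between the lines did not pass (adjusted p of the interaction = 0.455, 0.440 and 0.487). Pxdc1, Klrk1 and Rpl35a-ps3 had log2 fold changes above 0 in that line (0.035, 0.061 and 0.90).

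Small shifts in well-expressed genes were sought among the 8356 genes with a mean of at least 10 CPM over the 8 samples, as a log2 fold change under 1 in size and no overlap between KO and WT samples. On TMM-normalised counts, 203 genes were shifted upwards (2.43%) and 431 downwards (5.16%). This balance depended on the scaling, since 476 were shifted upwards and 175 downwards on TPM. With 1 sample left out, groups overlap less easily, and both counts were higher in each such fit. Without the fourth KO sample they were 566 and 805, and without the third KO sample 273 and 670. Without the third WT sample they were 398 and 867, and without the fourth 309 and 545. In each of these fits more genes were shifted downwards than upwards. Of the 12 genes with the smallest p in each direction, 8 of the higher and 5 of the lower passed the test.

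Als2cl, which encodes a regulator of the endosomal GTPase Rab5, had 274, 255, 288 and 261 CPM in KO and 137, 129, 163 and 163 CPM in WT (log2 fold change 0.87 ± 0.088 (SE), adjusted p = 0.00176). Oxsr1, a kinase of the osmotic stress response, had a mean of 144 CPM in KO and 79.3 CPM in WT (log2 fold change 0.87 ± 0.10 (SE), adjusted p = 0.0062). Baz2b, a bromodomain protein of chromatin remodelling, had 73.4, 66.6, 78.3 and 68.9 CPM in KO and 51.7, 52.99, 54.9 and 56.5 CPM in WT (log2 fold change 0.42 ± 0.067 (SE), adjusted p = 0.0316). Pld2, a phospholipase D, had 15.7, 14.6, 15.4 and 16.6 CPM in KO and 11.1, 10.8, 9.97 and 11.9 CPM in WT (log2 fold change 0.52 ± 0.088 (SE), adjusted p = 0.0437). For Baz2b and Pld2 the call was lost on leaving out any single sample, with adjusted p up to 0.119 and 0.145. The unnamed lncRNA ENSMUSG00000121093 on chromosome 17 had 599.9, 551, 635 and 567 CPM in KO and 443, 458, 463 and 444 CPM in WT (log2 fold change 0.39 ± 0.061 (SE), adjusted p = 0.0292), but it shares up to 316 bases with other transcripts and also lost its call on leaving out any sample. The non-coding Gm47015, Gm49760 and Gm49553 had log2 fold changes of 0.74, 0.95 and 0.86, the last of them within Grap2 on the same strand and without a call in 7 of the 8 fits (adjusted p up to 0.0752).

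Naip6, a cytosolic sensor of bacterial flagellin and secretion systems of the NAIP family, was next in rank, with 19.8, 21.2, 18.03 and 19.7 CPM in KO and 12.2, 7.47, 9.51 and 13.04 CPM in WT (log2 fold change 0.91 ± 0.16, unadjusted p = 1.68e-04, adjusted p = 0.0502). The other 2 family members tested, looked at after the value of Naip6 was seen, had log2 fold changes of 0.75 (Naip5, adjusted p = 0.114) and 0.38 (Naip2, adjusted p = 0.309), and these genes are close copies of each other on chromosome 13. The kinase Dstyk, the zinc-finger repressor Zbtb20 and the Rap regulator Sipa1l2 were shifted by 0.47, 0.43 and 0.50 on the log2 scale with adjusted p of 0.0579, 0.0702 and 0.0824. Zbtb20 was at 57.98, 55.02, 55.3 and 55.8 CPM in KO and 42.3, 36.8, 47.3 and 40.9 CPM in WT. Single samples decided some of these calls: Naip6 passed without the second or the fourth WT sample (adjusted p = 0.0493 and 0.0409), and Zbtb20 and Sipa1l2 without the third (0.034 for both).

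Downwards, the phospholipid flippase Atp8a2, the protease Klk8 and the LIM factor Lmo4 followed Cdk4 and Klrk1, with log2 fold changes of -0.53, -0.39 and -0.47 and adjusted p of 0.0562, 0.0595 and 0.0677. Nrn1, neuritin, which is known from anergic and follicular T cells, had 12.4, 13.5, 13.9 and 14.7 CPM in KO and 27.6, 20.9, 17.9 and 29.8 CPM in WT (adjusted p = 0.0702). Rasa1, a Ras inhibitor, had 114, 108, 109.7 and 114 CPM in KO and 149, 137, 135 and 135 CPM in WT (adjusted p = 0.0702). The lamellipodin gene Raph1 had a log2 fold change of -0.62 (adjusted p = 0.0746). None of these 6 passed the test with all samples. That their groups did not overlap is part of the rule that chose them. Without the third KO sample Atp8a2 and Klk8 passed (adjusted p = 0.0458 and 0.0452), and without the third WT sample Nrn1 did (0.0293).

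**Figure D3:**
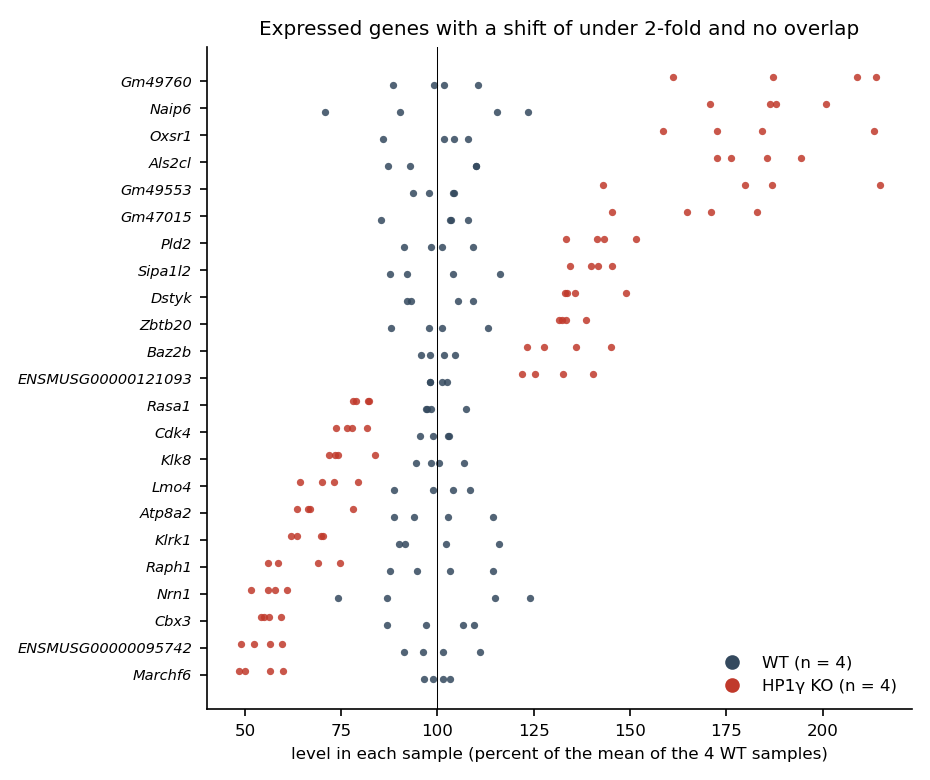
Level in each sample as a percentage of the WT mean, for 23 of the 24 expressed genes with the smallest p among those with a shift of under 2-fold and no overlap (WT dark, KO red, 4 samples each). For each gene the 4 KO samples lie wholly above or wholly below the 4 WT samples, and the WT samples lie around 100%.

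No gene of the helper T cell programmes passed the test (with the sample set as a term Il6st did), and the medians of the programmes lay near 0. Over all genes tested the median log2 fold change was 0.0005 and 56.5% had a 95% interval within 0.5 either side of 0, against 89.3% of the genes at 10 CPM or more. The Th1, Th2, Th17, follicular helper and regulatory lists held 15, 10, 13, 12 and 16 tested genes, of which in edgeR 0 higher and 1 lower, 0 higher and 2 lower, 0 higher and 1 lower, 1 higher and 0 lower and 1 higher and 1 lower had an unadjusted p under 0.05 (6.34% higher and 5.57% lower of all genes), with medians of -0.044, -0.0095, -0.026, -0.035 and -0.0065. The intervals within the limit numbered 9 of 15, 1 of 10, 3 of 13, 3 of 12 and 7 of 16, so that for most of these genes the interval reached beyond that size.

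Among their members, Gata3, the Th2 factor, had 161, 166, 189 and 152 CPM in KO and 168, 192, 168 and 182 CPM in WT, with an interval from -0.25 to 0.10. Rora, a factor of Th17 cells, and Icos, a receptor of follicular helper cells, had log2 fold changes of 0.13 ± 0.23 and -0.054 ± 0.13. Il4 had 2.05, 2.21, 1.86 and 1.899 CPM in KO and 3.21, 4.82, 2.25 and 4.22 CPM in WT, without overlap and without passing the test (log2 fold change -0.85 ± 0.24, unadjusted p = 0.00542). Maf, a factor of Il4, Il10 and Il21 transcription, had 277, 306, 293 and 258 CPM in KO and 370.0, 308, 312 and 357 CPM in WT (log2 fold change -0.24 ± 0.081, unadjusted p = 0.0137), and Il10 overlapped between genotypes (19.04, 27.7, 12.9 and 20.97 CPM and 35.3, 21.6, 24.95 and 30.6 CPM). In the regulatory list, Ctla4 had a log2 fold change of 0.071 ± 0.15, Ebi3 of 0.49 ± 0.16 and Itgae of -0.68 ± 0.28. For Cxcr6, a chemokine receptor of the Th1 list, the mean was 58.8 CPM in KO and 83.5 CPM in WT (log2 fold change -0.50 ± 0.18, unadjusted p = 0.0217).

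Exhaustion, anergy and memory programmes held no call either. None of 23 inhibitory receptors and exhaustion regulators, 12 anergy genes and 16 genes of quiescence and central memory passed, with medians of -0.017, -0.044 and -0.0043 and intervals within the limit for 10 of 23, 9 of 12 and 13 of 16. At an unadjusted p under 0.05, 2 higher and 3 lower, 0 higher and 0 lower and 0 higher and 1 lower were found, against 6.34% higher and 5.57% lower of all genes. Btla, an inhibitory receptor, had 98.1, 97.6, 119 and 109 CPM in KO and 90.3, 86.3, 97.5 and 86.9 CPM in WT (log2 fold change 0.24 ± 0.078, unadjusted p = 0.0114). Nr4a2 and Nr4a3, nuclear receptors induced by antigen, had log2 fold changes of 0.30 ± 0.10 and 0.23 ± 0.20. Eomes had 13.4, 24.4, 17.3 and 14.3 CPM in KO and 23.6, 21.1, 31.4 and 28.1 CPM in WT (log2 fold change -0.57 ± 0.19, unadjusted p = 0.0133), and it is also a gene of NK cells. Dgka, an inhibitor of diacylglycerol signals, and Btg1, an abundant quiescence gene, had log2 fold changes of 0.13 ± 0.091 and -0.12 ± 0.083, and Satb1, a chromatin organiser, one of -0.43 ± 0.17. Tcf7, the factor of central memory, had one of 0.041 with an interval from -0.083 to 0.17. The memory gate list showed 0 rises and 0 falls among 10 genes and a median of -0.016, with Il7r, the IL-7 receptor, at 214 CPM in KO and 248 CPM in WT.

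Gene sets that the study used were looked up as well. Of 95 tested genes of its exhaustion set, only Penk rose and none fell, with a median of -0.032. Pawr, a pro-apoptotic factor of that set, had 2.24, 2.38, 2.58 and 2.82 CPM in KO and 1.43, 0.79, 1.49 and 1.09 CPM in WT (log2 fold change 1.07 ± 0.24, unadjusted p = 0.0012). Of 138 tested genes of its HP1γ network, 5 rose, Fat1 and Dnah12 among them, and none fell (0.254% of all genes rose), with a median of 0.076. The network was chosen by the study on Treg-exposed cells of the same knockout, so that it is not independent evidence of a direction.

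Of the signalling lists, those of the TCR had the larger share of intervals within the limit. Of 21 genes of proximal TCR signalling, 19 had intervals within the limit (median -0.027), as did 17 of 22 genes of the early TCR response (median -0.012), 15 of 24 cytokine receptor chains (median 0.016) and 17 of 30 interferon-stimulated genes (median -0.092). None of them passed the test. Il10ra, a chain of the IL-10 receptor, came closest with 95.3, 79.8, 91.4 and 86.5 CPM in KO and 66.5, 69.5, 65.2 and 78.5 CPM in WT (log2 fold change 0.34 ± 0.079, unadjusted p = 0.00135, adjusted p = 0.155), followed by Gbp2, an interferon-induced GTPase (log2 fold change -0.31 ± 0.078, unadjusted p = 0.00231). Cd3g, a chain of the TCR complex, and Cd5, an inhibitor of its signal, were shifted by -0.21 and 0.18 without overlap, and Egr1 by -0.25 with overlap. Il27ra and Mx1 had log2 fold changes of -0.24 and 0.45.

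Chemokine receptors and cytotoxic genes had wider intervals (2 of 16 and 4 of 14 within the limit, medians -0.041 and -0.12, no call). Ccr2, a receptor that guides cells to inflamed tissue, had 29.2, 23.9, 42.2 and 27.2 CPM in KO and 54.3, 56.4, 45.2 and 44.4 CPM in WT (log2 fold change -0.70 ± 0.16, unadjusted p = 0.00129, adjusted p = 0.155), without overlap, and without the third KO sample the adjusted p was 0.0178. Gzmb, the cytotoxic protease granzyme B, overlapped between genotypes (14.98, 11.2, 8.69 and 8.39 CPM and 13.8, 18.5, 19.7 and 8.94 CPM).

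**Figure D4:**
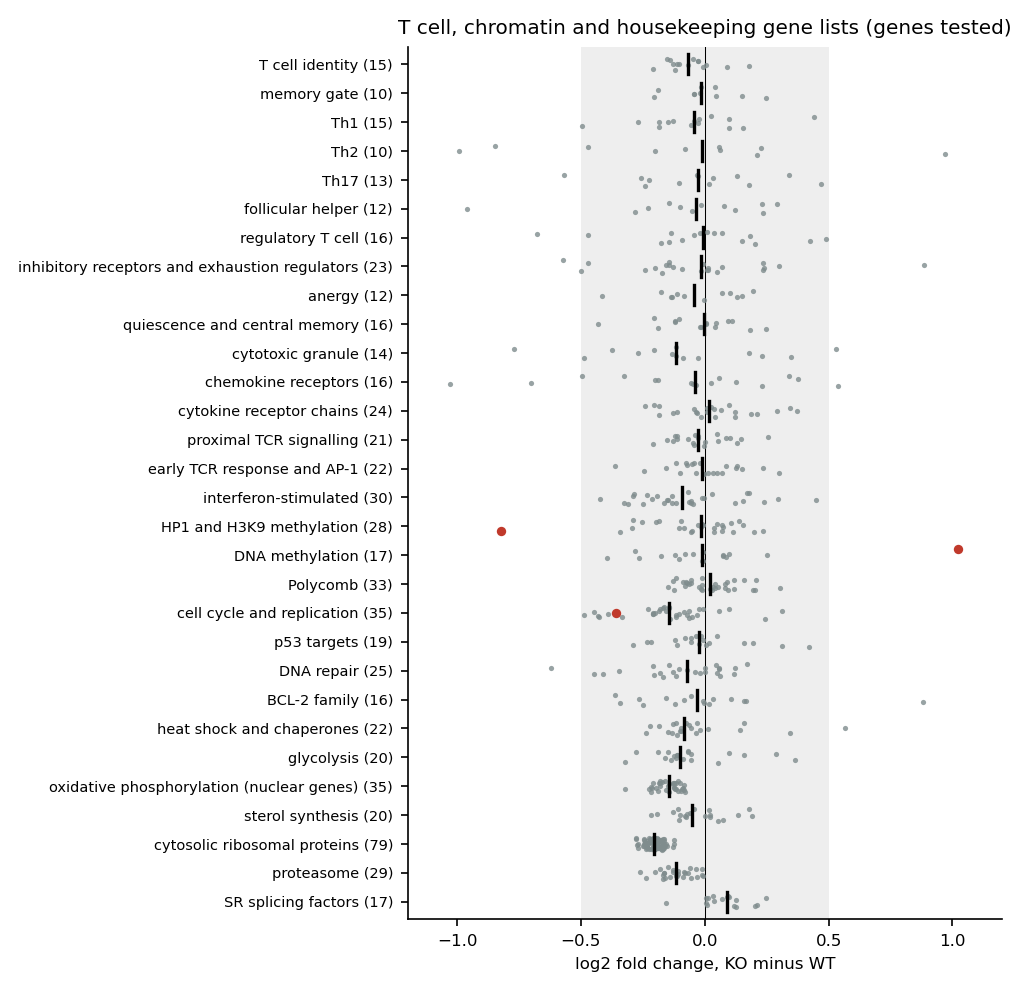
Log2 fold change (KO minus WT) of every tested member of the T cell, chromatin and housekeeping lists, with the number tested in brackets, the median as a black bar, genes that passed the test in red and the range of 0.5 either side of 0 shaded. Medians of the T cell lists lie within 0.12 of 0, and the ribosomal protein, oxidative phosphorylation and proteasome genes lie together to the left of 0.

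Genes of the silencing machinery had few calls. Apart from Cbx3, none of 28 genes of HP1 and H3K9 methylation passed (median -0.014, intervals within the limit for 22 of 28), and none of 33 Polycomb genes (median 0.022, 32 of 33). Morc2a, a silencing ATPase, had a log2 fold change of 0.20 ± 0.073 and Atf7ip, a partner of SETDB1, of 0.23 ± 0.11, whereas Adnp2 had -0.29 ± 0.11 and the Polycomb chromobox gene Cbx7 0.21 ± 0.12. Of 17 DNA methylation genes, only Mbd1 passed, and 2 other readers of methylated DNA were lower without overlap, Zbtb38 with 88.2, 89.4, 76.1 and 78.2 CPM in KO and 118, 125, 96.1 and 100.1 CPM in WT (log2 fold change -0.40 ± 0.10, unadjusted p = 0.00211) and Mbd2 with 171, 168, 187 and 185 CPM in KO and 209, 202, 200.2 and 198 CPM in WT (log2 fold change -0.18 ± 0.058, unadjusted p = 0.011). Tet2, an enzyme that oxidises methylated cytosine, was shifted by 0.25 ± 0.078 with overlap.

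Other classes of genes that heterochromatin is known to silence held no call. Germ line and testis genes could be tested in 10 of 45 cases and none passed (median -0.037). The meiotic gene Spo11 stood at 5.31, 4.801, 5.32 and 6.49 CPM in KO and 4.25, 4.13, 6.32 and 5.68 CPM in WT, and Tex15, a gene of male meiosis, was higher without overlap (log2 fold change 0.77 ± 0.28, unadjusted p = 0.0192). None of the 22 genes of the 2-cell embryo in the files had enough counts, 18 of them having 0 counts in all 8 samples. Protocadherin cluster genes had 12 tested members and no call (median -0.041), Pcdhgb2 being the most shifted (log2 fold change 1.61 ± 0.38, unadjusted p = 0.00161), and imprinted genes 13 members and no call (median 0.00039). Snrpn, an imprinted gene, was lower without overlap at a level under 1 CPM in every sample (log2 fold change -1.76 ± 0.52, unadjusted p = 0.00669), and Kcnq1ot1, the imprinted antisense RNA, was shifted by 0.54 ± 0.17. Regulators of other blood lineages had a median of 0.65 over 13 genes without a call, with Pax5 of B cells and Gata1 of red cells at log2 fold change 0.82 ± 0.26, unadjusted p = 0.00981 and log2 fold change 1.41 ± 0.45, unadjusted p = 0.0108. Pax5 is also in the list of B cell markers, and RNA of other blood cells was present in both genotypes. The part of those cells in the values of these regulators was not tested.

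Lists of B cell, plasma cell, myeloid, dendritic, CD8 T cell and red cell markers had medians above 0 (0.28, 0.053, 0.43, 0.87, 0.58 and 1.502), and NK and γδ T cell markers below 0 (-0.21 and -0.28), with Klrk1 as the single call. B cell markers summed to between 249.6 and 484 CPM in KO and between 147 and 334 CPM in WT, with Cd22 at 49.3 CPM in KO and 38.4 CPM in WT, and dendritic cell markers to between 44.7 and 165 CPM in KO and between 20.5 and 82.5 CPM in WT. The fourth KO sample stood out, with 165 CPM of dendritic markers, mainly Siglech of plasmacytoid dendritic cells (32.4, 37.6, 25.2 and 110.2 CPM in KO and 10.8, 49.3, 31.97 and 11.4 CPM in WT), and it was also high in Irf8 and Cd8a. Without it the dendritic sum was 53.9 CPM in KO on average against 46.1 CPM in WT, and 34 genes rose and 10 fell.

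Red cell and platelet RNA summed to between 88.1 and 1214 CPM in KO and between 48.9 and 534 CPM in WT, with Hbb-bs at 359.8, 424, 28.7 and 292 CPM in KO and 17.2, 174, 186 and 23.3 CPM in WT, whereas Itga2b of platelets was shifted by 0.62 ± 0.19. Plasma cell markers summed to between 587 and 659.6 CPM in KO and between 458 and 607 CPM in WT, most of it Irf4, which T cells also express (417, 418, 410.2 and 386 CPM in KO and 296, 393, 289 and 284 CPM in WT, log2 fold change 0.38 ± 0.10, unadjusted p = 0.00366, adjusted p = 0.0182 without the second WT sample). CD8 T cell genes summed to between 7.66 and 18.5 CPM in KO and between 5.74 and 10.4 CPM in WT and γδ T cell genes to between 27.8 and 43.6 CPM in KO and between 39.9 and 57.5 CPM in WT, where Sox13 was lower without overlap under 1.2 CPM (log2 fold change -1.45 ± 0.45, unadjusted p = 0.0089) and Trgc1 overlapped. The part of these cells in the results was not tested.

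Genes of protein synthesis and energy metabolism were shifted together by a small amount. All 79 cytosolic ribosomal protein genes had a log2 fold change below 0, from -0.28 to -0.12 (median -0.20), and 72 of them were lower at an unadjusted p under 0.05, against 7.44% of all genes at 10 CPM or more, but none passed the adjusted test in edgeR, while Rpl32 and Rpl41 did in DESeq2. Every interval lay within 0.5 either side of 0. Rpl32 had 608, 581, 600.2 and 580.4 CPM in KO and 792, 772, 639 and 688 CPM in WT (log2 fold change -0.28 ± 0.073, unadjusted p = 0.00329). Rpsa had 2275, 2095, 2179 and 2132 CPM in KO and 2831, 2631, 2302 and 2465 CPM in WT (log2 fold change -0.23 ± 0.069, unadjusted p = 0.00806), and Rpl41 and Rplp0 had log2 fold changes of -0.25 and -0.22. Summed over the list, ribosomal protein RNA lay between 57794 and 63926 CPM in KO and between 63423 and 77389.8 CPM in WT, a mean difference of -13.8% relative to WT.

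The same held for the 35 nuclear genes of oxidative phosphorylation, which were all below 0 (median -0.14, 16 at an unadjusted p under 0.05, no call) and summed to between 3071 and 3134 CPM in KO and between 3211 and 3612 CPM in WT, and for the 29 proteasome genes, which were all below 0 too (median -0.11, 9 at an unadjusted p under 0.05, no call). Cycs, which encodes cytochrome c, had 38.1, 38.3, 39.98 and 32.8 CPM in KO and 48.6, 49.3, 40.5 and 49.1 CPM in WT. Ndufa4 and Atp5b, of complex IV and the ATP synthase, had log2 fold changes of -0.22 and -0.15, and Psme2, of the immunoproteasome activator, one of -0.24. On TPM the medians of the 3 lists were -0.14, -0.073 and -0.044 while that of all genes was 0.056.

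Exon length went with these shifts. Among expressed genes, split by length into 10 bins of 833 to 836 genes, the median log2 fold change went from -0.10 in the bin with the shortest summed exons to 0.054 in the bin with the longest, and leaving out ribosomal protein genes changed the first value to -0.098. In the HP1α line the same medians went in the other direction, from 0.046 to -0.033. With the length trend removed from each sample, the medians of the ribosomal, oxidative phosphorylation and proteasome lists were -0.19, -0.12 and -0.098. The part of exon length in the shift was not tested further.

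**Figure D5:**
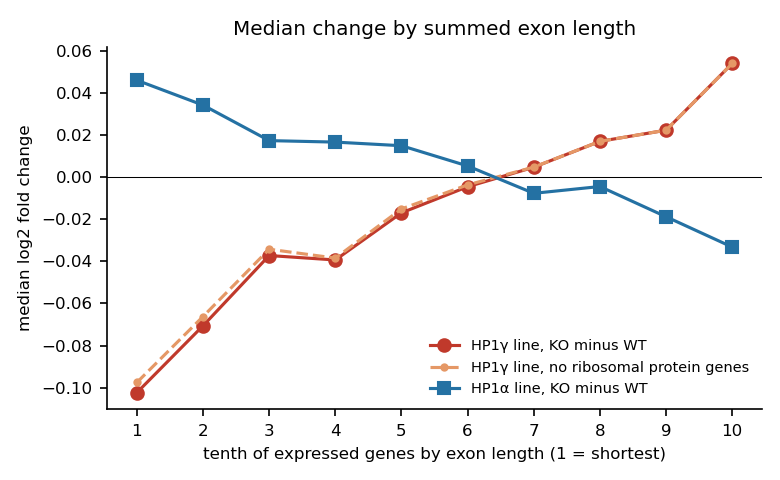
Median log2 fold change (KO minus WT) in 10 bins of the expressed genes by summed exon length, for the HP1γ line with and without ribosomal protein genes and for the HP1α line. The HP1γ medians climb from -0.10 to 0.054 from short to long genes and those of the HP1α line descend from 0.046 to -0.033.

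Other housekeeping lists held a single call. Cell cycle and replication genes had a median of -0.15 over 35 genes, with Cdk4 as the single call. Of these genes, 31 were below 0, and in edgeR 8 were lower and 0 higher at an unadjusted p under 0.05. At that p, 5.57% of all genes were lower, and 7.44% of those at 10 CPM or more. In the HP1α line the median of this list was -0.20. Ccna2 had 10.9, 13.8, 12.6 and 16.6 CPM in KO and 17.3, 24.8, 15.5 and 15.8 CPM in WT. Ccnd2 and Pcna had log2 fold changes of -0.20 and -0.12. The medians were -0.10 for glycolysis (16 of 20 intervals within the limit), -0.085 for heat shock and chaperones (18 of 22), -0.074 for DNA repair (18 of 25), -0.052 for sterol synthesis (19 of 20), -0.032 for the BCL-2 family (11 of 16), -0.022 for p53 targets (14 of 19) and 0.091 for SR splicing factors (17 of 17), without a call. Within glycolysis, Pgk1 and Pfkp were shifted in opposite directions (log2 fold change -0.28 ± 0.068, unadjusted p = 0.00216 and log2 fold change 0.36 ± 0.11, unadjusted p = 0.00831), and Pfkp had an adjusted p of 0.033 without the fourth KO sample. Brca1, of DNA repair, and Bid, a pro-apoptotic BCL-2 member, were lower without overlap (log2 fold change -0.45 ± 0.14, unadjusted p = 0.0104 and log2 fold change -0.36 ± 0.12, unadjusted p = 0.0105), while Mcl1, a survival factor, had a log2 fold change of 0.016 ± 0.065. Hspa8, the abundant heat shock cognate, and Srsf10, a splicing factor, had -0.22 ± 0.13 and 0.25 ± 0.10.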

How the data were processed

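RNA of sorted memory T cells was sequenced from stranded mRNA libraries with paired reads of 150 bp. After trimming, the authors used STAR and the GRCm39 genome (Ensembl release 107) for alignment, and Salmon, within an nf-core workflow, for quantification. The deposited tables hold estimated counts per gene without normalization, of which 11.6% are not whole numbers, and TPM that the authors computed from them. Whether counting used the strand is not given in the sources used here, so that genes with an antisense neighbour (among them Als2cl, Atp2a1, Baz2b, Cbx3, Cdk4, Dnah8, Il17rb, Il4, Klk8, Nrn1, Raph1 and Rasa1) are uncertain to that extent.

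Counts were rounded to whole numbers and tested with edgeR 4.0.16 in R 4.3.3 (TMM, filterByExpr with a minimum count of 10, quasi-likelihood F-test, Benjamini-Hochberg over 14975 of 56748 genes) in the 8 samples of the HP1γ line. The interaction with the HP1α line was tested in all 16 samples, over which CPM were also scaled. The test was checked on simulated data with known changes, 50 genes at each size. It called 20% of those changed 1.3-fold, 56% at 2-fold, 86% at 4-fold and 98% at 8-fold. It also called 7 unchanged genes among 14975 simulated, changed ones included. The simulated samples were drawn independently, without the sample sets seen in the data, so that these shares hold for that setting only. Positions come from GENCODE vM39 on GRCm39, 14905 of the genes tested being annotated there. Shared sequence was searched with blastn 2.17.0.

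The comparison and the 49 gene lists were chosen with earlier results of these data known, and lists are described by counts, medians and summed levels without a test. Named genes are Cbx3, Cbx1 and Cbx5, every DEG, the 12 shifts with the smallest p in each direction among genes of at least 10 CPM, up to 3 genes of each list with the smallest p and up to 3 with the highest level, and genes under the filter with counts in 1 genotype only. Genes outside this rule (Naip5, Naip2, Zfp987 and Zfp993) were chosen after their values were seen. Some items that the rule names are not reported here. Alternatives were DESeq2 1.42.0, RLE size factors, other filters, a fit of 16 samples, a block for the replicate number, a robust fit, limma 3.58.1 on log2(TPM + 1) and log2(TPM + 0.1), the omission of each sample and, chosen after seeing the data, a fit without the exon length trend and a fit with a term for the set (samples 1 and 2, or 3 and 4). No sample was left out. The floor of 3 counts that a count of 0 allows covers counting error only.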

Additional observations from a re-analysis of the deposited data

Results flagged for a closer look

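In edgeR, the test of the interaction between genotype and line passed for 8 genes. The difference of the log2 fold changes, HP1γ minus HP1α, was 4.98 for Dnah12, 5.12 for Gm49215, 2.03 for Shisa6, 1.12 for Gm47015, 1.04 for Mbd1, 0.82 for Oxsr1, 0.79 for Als2cl and -0.81 for Marchf6. In the HP1α line, Dnah12 had means of only 0.324 CPM in KO and 0.756 CPM in WT. Gm49215 had 0.0703 CPM in KO and 0.151 CPM in WT there, too few counts for a test in that line. The sizes of these differences are uncertain to that extent.

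Gm23971 (ENSMUSG00000119892), a small nuclear RNA gene of chromosome 11 (101536566 to 101536756), was not among the genes tested. Its KO samples held 6, 21, 25 and 58 counts, and each WT sample 0. The KO mean in CPM was at least 8.75-fold above a floor of 3 counts per library. The libraries were selected for poly(A), and the 4 KO values differ widely among themselves.

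In 22 of 286 groups of 4 samples looked at (7.69%, over 143 genes), 1 sample lay far from the other 3 by Dixon's criterion, which chance meets in about 1 group of 20. The fourth KO sample was the high one for Siglech (110 CPM against 37.6 for the next), Irf8 (179 against 71.0), Cd8a (7.39 against 2.94), Cacna1e (30.4 against 11.4), Cdh1 (13.4 against 4.06), Dstyk (28.8), 2410018L13Rik (7.06), Gm6093 (6.19), Gm48693 (1.67) and Snrpn (0.359 CPM). It was the low one for Nr4a2 (333 CPM) and Tet2 (101 CPM). Elsewhere in KO, the first sample was low for Cxcr6 (53.4 CPM), and the third high for Dnah8 (157) and Mx1 (26.1) and low for 9030624G23Rik (0.588 CPM). In WT, the first sample was high for Rasa1 (149 CPM) and low for Atp2a1 (2.98), the second high for Irf4 (393), and the third high for Tet2 (106) and Snrpn (0.942) and low for Cycs (40.5 CPM).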

How the results depend on the processing

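The direction of all called genes that were named held in every fit. Of 384 values of 48 called genes with 1 sample left out, 255 kept their call and 129 lost it, and of 507 values under the other settings 445 kept it and 62 lost it. For 92 genes without a call in the main fit, 12 of 736 values with 1 sample left out became calls. Under the other settings 66 of 1008 values of these genes did, so that the absence of a call holds for the main fit only. Of the 49 called genes, 11 were called under all 11 other settings. Of 912 medians of gene lists, 876 moved by less than 1 SD of the spread between samples and 36 by more, 22 of these under TPM.

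The number of genes with an adjusted p under 0.05, 38 higher and 11 lower, was 171 and 81 with DESeq2, 79 and 28 with the sample set as a term, 67 and 29 with all 16 samples in one fit, 24 and 4 with limma on log2(TPM + 1), 23 higher with at least 10 counts asked in every sample, 22 lower with no filter and 5 lower with limma on log2(TPM + 0.1). With 1 sample left out it ranged from 25 to 35 higher and from 5 to 14 lower. The 29 genes higher by more than 1 on the log2 scale were 73 with DESeq2, 15 with the strict filter and 16 on log2(TPM + 1), and 21 to 28 with 1 sample left out. The 6 lower ones were 24 with DESeq2, 11 with no filter, 10 with 16 samples, 3 with the strict filter, 2 on log2(TPM + 1) and 3 on log2(TPM + 0.1), and 2 to 7 with 1 sample left out. The small shifts, 203 higher and 431 lower, were 476 and 175 on log2(TPM + 1) and 474 and 175 on log2(TPM + 0.1). With 1 sample left out, where groups overlap less easily, the small shifts ranged from 250 to 566 higher and from 523 to 867 lower. Genes that differed between the lines were 8, and 14 with no filter. The causes were not tested.

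Sign changes were limited to genes that were not called. Icos was at 0.023 on both TPM scales and between -0.14 and 0.039 with 1 sample left out. The ranges with 1 sample left out were -0.18 to 0.0027 for Cbx1, -0.013 to 0.92 for Cdh1, -0.058 to 0.19 for Ctla4, -0.016 to 0.050 for Mcl1 and -0.019 to 0.30 for Rora.

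KO and WT samples share replicate numbers, but same-numbered samples deviated together only in part, with correlations of 0.12, 0.19, -0.0059 and 0.088, so that the numbers were not taken to pair the samples. The highest of the 16 correlations were 0.31 for the third KO and the fourth WT sample and 0.22 for the first KO and the second WT sample, and the lowest were -0.34 for the third KO and the second WT sample and -0.31 for the first KO and the fourth WT sample. With the replicate block, 46 genes were higher and 14 lower (32 and 6 by more than 1 on the log2 scale), Cbx3 was at -0.82, and 13 genes differed between the lines.

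With 4 samples a side a gene without a call is not shown to be unchanged.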
